A study of Mus musculus with 2 samples.

Results

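The prostaglandin genes described here are Ptgds, Hpgd, Ptges3, Ptgs1 and Ptgs2, which are 5 of the 31053 genes in the tables. They were selected on earlier results of these same libraries and taken by name. Their levels are therefore given as a description, with no test of that pattern. Each was followed across the 3 types into which the lineage barcodes were sorted (OPC, NFO and oligodendrocyte), across the uninjured and injured libraries, and across barcode depth. OPCs are oligodendrocyte precursor cells, and NFOs are newly formed oligodendrocytes, the stage between precursors and myelinating cells.

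The scRNA-seq experiment had 2 libraries, 1 from 5 uninjured optic nerves and 1 from 5 injured nerves, taken at the injury site 2 weeks after optic nerve crush (ONC), which severs the axons of retinal ganglion cells. Both came from wildtype 129S1/SvlmJ mice of pooled sexes, and nerves were pooled, so no animal can be told from another. The study's design has the mice at 10 weeks of age, with ONC at 8 weeks. In the sample labels, however, both libraries carry the same treatment (crush, 2 weeks) and an age of 56 days, so the uninjured library was assigned by its title. The labels name no transgene or drug in either library. With 1 library per condition there was no replicate and no test between conditions. All intervals are exact 95% intervals that cover counting error only, and they describe these libraries and not the conditions. Cell types other than the lineage were not analysed here.

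The uninjured library held 959 lineage barcodes with a median of 2782 unique molecules (UMIs) each, and the injured library 410 with a median of 1304.5. No cell barcode was shared between them. Among the fixed marker lists, the list for mature oligodendrocytes summed to 70072 and 59730 CPM (UMIs of a gene per 1000000 UMIs of its class) in the uninjured and injured oligodendrocytes, and to 1037-16936 CPM in OPCs and NFOs. The label NFO was less well borne out by markers in the uninjured library. There, 21 of 44 NFO barcodes had a UMI of Fyn, a kinase gene used as an NFO marker, and the OPC list (6215 CPM) exceeded the NFO list (4993 CPM). Of the 585 OPC-list UMIs, 177 were of Olig1, which was also at 533 CPM in uninjured oligodendrocytes. The NFO list had 470 UMIs, of which 149 were of Bcas1, which was in turn at 547 CPM in uninjured oligodendrocytes. The order of the lists thus depends on which of these shared genes are counted. Within the uninjured library the NFO list was highest in NFOs, with 1938 CPM in OPCs and 1148 CPM in oligodendrocytes. In the injured library 72 of 100 NFO barcodes had a Fyn UMI, and the NFO list (7591 CPM) exceeded the OPC list (3959 CPM).

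Prostaglandins are short-lived lipid signals made from arachidonic acid. Phospholipases release the acid from membranes, the cyclooxygenases encoded by Ptgs1 and Ptgs2 turn it into prostaglandin H2, and terminal synthases turn that into the individual prostaglandins. Ptgds encodes lipocalin-type prostaglandin D synthase, an abundant secreted protein of the brain that also carries lipophilic molecules, and its RNA is known from mature oligodendrocytes and from the meninges. Ptges3 encodes p23, a co-chaperone of Hsp90 that was also named a cytosolic prostaglandin E synthase. Hpgd encodes 15-hydroxyprostaglandin dehydrogenase, the enzyme that starts the breakdown of prostaglandins.

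In GRCm38 coordinates of GENCODE vM21, Ptgds (ENSMUSG00000015090) spans chr2:25466709-25470046 on the minus strand and Hpgd (ENSMUSG00000031613) chr8:56294585-56321043 on the plus strand. Ptges3 (ENSMUSG00000071072) lies at chr10:128058954-128077272, Ptgs1 (ENSMUSG00000047250) at chr2:36230426-36252272 and Ptgs2 (ENSMUSG00000032487) at chr1:150100031-150108227, all on the plus strand. All 5 members code for protein. All 5 also matched an entry of the RefSeq promoter table (GRCm38.p6). The promoters of Ptgds and Hpgd are shown because these members separated the types, the first in oligodendrocytes and the second in NFOs of the injured nerve. Each run goes 5′ to 3′ on the strand of its gene, from 250 bases before the RefSeq start to 20 bases after it. Capitals mark E-boxes (CANNTG, the letters that basic helix-loop-helix factors such as Olig2 recognise) and TATAAA.
Ptgds (chr2:25469730-25469999, minus strand): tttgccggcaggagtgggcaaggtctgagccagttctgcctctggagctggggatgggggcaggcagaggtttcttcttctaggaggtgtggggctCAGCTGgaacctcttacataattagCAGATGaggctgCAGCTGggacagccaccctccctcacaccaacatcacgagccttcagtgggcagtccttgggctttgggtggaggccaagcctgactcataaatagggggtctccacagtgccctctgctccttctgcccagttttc
Hpgd (chr8:56294302-56294571, plus strand): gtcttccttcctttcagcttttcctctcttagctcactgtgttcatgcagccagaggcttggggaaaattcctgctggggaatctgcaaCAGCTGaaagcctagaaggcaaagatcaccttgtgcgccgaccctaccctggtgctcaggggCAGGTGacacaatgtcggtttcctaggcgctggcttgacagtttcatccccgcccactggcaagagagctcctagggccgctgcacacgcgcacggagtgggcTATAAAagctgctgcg

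Windows of 300 bases, up to 50 bases after the start, were searched on both strands. Ptgds held E-boxes that began at -154, -129 and -117 from its RefSeq start, and Hpgd held them at -161 and -99. An E-box of some kind was in 72.3% of the 32851 promoters of this length, so its presence does not set these genes apart. TATAAA was at position 5 of Hpgd, not in Ptgds, and in 13.6% of all promoters. GENCODE starts Hpgd 33 bases further on, which puts this TATAAA 29 bases before that start. ACAAAG or ACAATG, letters of the kind that Sox factors recognise, began at 25 in Ptgds and at -91 in Hpgd and were in 28.6% of all promoters. No motif overlapped another in either gene. The GENCODE start of Ptgds is 297 bases before the RefSeq one. The window of Ptges3 held none of these motifs. Those of Ptgs1 and Ptgs2 held 3 E-boxes each and no other motif. A match is a description of letters, since binding was not measured.

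The cyclooxygenases were almost without reads. Ptgs1, the constitutive form, had 2 UMIs in all, both in uninjured oligodendrocytes (0.482 CPM, 0.0584-1.74). Ptgs2, the inducible form, had 6 UMIs in all, of which 2 were in uninjured oligodendrocytes, 1 in injured oligodendrocytes, 1 in injured OPCs and 2 in injured NFOs. Both genes were therefore at the limit of detection in every class, and no class could be told from another. The limit was tight only in oligodendrocytes. There, 3 UMIs would be 1.303 CPM in the injured class for Ptgs1, whereas in uninjured NFOs they would be 31.9 CPM.

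Ptgds was the member with most RNA in the lineage, with 24630 UMIs. In the uninjured library its level was 93.4 CPM (53.4-152) in OPCs from 16 UMIs, 191 CPM (113-302) in NFOs from 18 UMIs, and 3602 CPM (3544-3660) in oligodendrocytes from 14945 UMIs. In the injured library it was 51.0 CPM (18.7-111) in OPCs from 6 UMIs, 625 CPM (545-714) in NFOs from 220 UMIs, and 4094 CPM (4011-4177) in oligodendrocytes from 9425 UMIs. Ptgds was thus highest in oligodendrocytes of both libraries. The oligodendrocyte level was 18.8 times the NFO level (11.9-31.8) in the uninjured library and 6.55 times (5.73-7.52) in the injured one. In the uninjured library the NFO and OPC levels did not part beyond counting error (ratio 2.05, 0.986-4.29). In the injured library the summed NFO level was 12.3 times the OPC level (5.54-33.8), but a single NFO barcode held 115 of the 220 UMIs. A Ptgds UMI was found in 22 of 100 injured NFO barcodes and in 6 of 17 injured OPC barcodes. With each barcode thinned to 500 UMIs, 10 of 100 and 2 of 17 kept one. The higher NFO sum was thus not seen in the share of barcodes with Ptgds.

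**Figure D1:**
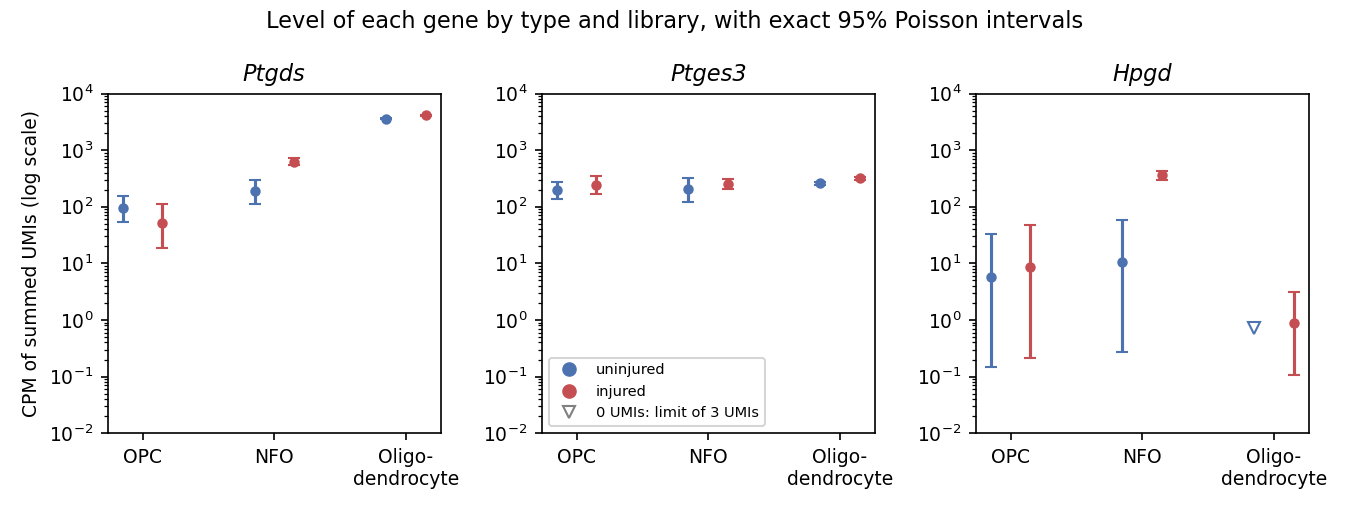
Level of Ptgds, Ptges3 and Hpgd in OPCs, NFOs and oligodendrocytes (x axis) as CPM of summed UMIs on a log scale (y axis), with blue for the uninjured and red for the injured library. Bars are exact 95% Poisson intervals and the open triangle marks the limit of 3 UMIs where none was found. Ptgds rose from OPCs to oligodendrocytes in both libraries, Ptges3 lay at 198-318 CPM throughout, and Hpgd stood out in injured NFOs at 358 CPM.

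Free RNA in droplets gives UMIs of abundant genes to cells that do not express them, and the low Ptgds counts were read beside that. A Ptgds UMI was found in 24.1% of uninjured OPC barcodes (13.9-37.2%, median depth 2290 UMIs) and 59.2% of uninjured oligodendrocyte barcodes (55.8-62.5%, median 3060 UMIs). The shares were 35.3% (14.2-61.7%) and 58.4% (52.5-64.1%) in the injured library, at median depths of 4120 and 1268 UMIs. With each barcode thinned to 500 UMIs, 2 of 56 uninjured OPC barcodes, 8 of 42 NFO barcodes and 337 of 838 oligodendrocyte barcodes kept one. In the injured library the thinned counts were 2 of 17, 10 of 100 and 110 of 293. The oligodendrocyte share was above the others in both libraries. The NFO shares of the injured (10.0%, 4.90-17.6%) and uninjured library (19.05%, 8.60-34.1%) had overlapping intervals. The higher CPM of injured NFOs was thus not seen in the share of barcodes.

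Set against Mag, the gene of myelin-associated glycoprotein, Ptgds in OPCs did not part from oligodendrocytes beyond counting error. There were 178 Ptgds UMIs per 100 Mag UMIs (74.0-456) in uninjured OPCs, from 16 and 9 UMIs, and 89.1 (87.1-91.1) in uninjured oligodendrocytes. The injured values were 100 (26.7-374), from 6 and 6 UMIs, and 115 (111-118). In NFOs the ratio was lower than in oligodendrocytes, at 22.8 (12.8-38.4) in the uninjured and 60.9 (51.3-72.3) in the injured library. The low OPC counts of Ptgds are not read as expression.

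Within oligodendrocytes Ptgds was very unevenly spread. The median barcode had 1 UMI in each library, and the highest had 345 in the uninjured and 762 in the injured library. The 86 uninjured barcodes with most Ptgds held 70.5% of its UMIs in that class, and the 30 injured barcodes with most held 77.8%. Counts of 10 or more UMIs were found in 215 of 857 uninjured and 78 of 293 injured barcodes. Raw UMIs also follow depth, and the same numbers of barcodes with most Ptges3 held 47.0% and 56.8% of the UMIs of that gene. In both libraries, then, Ptgds was held by a minority of oligodendrocyte barcodes to a greater degree than Ptges3.

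**Figure D2:**
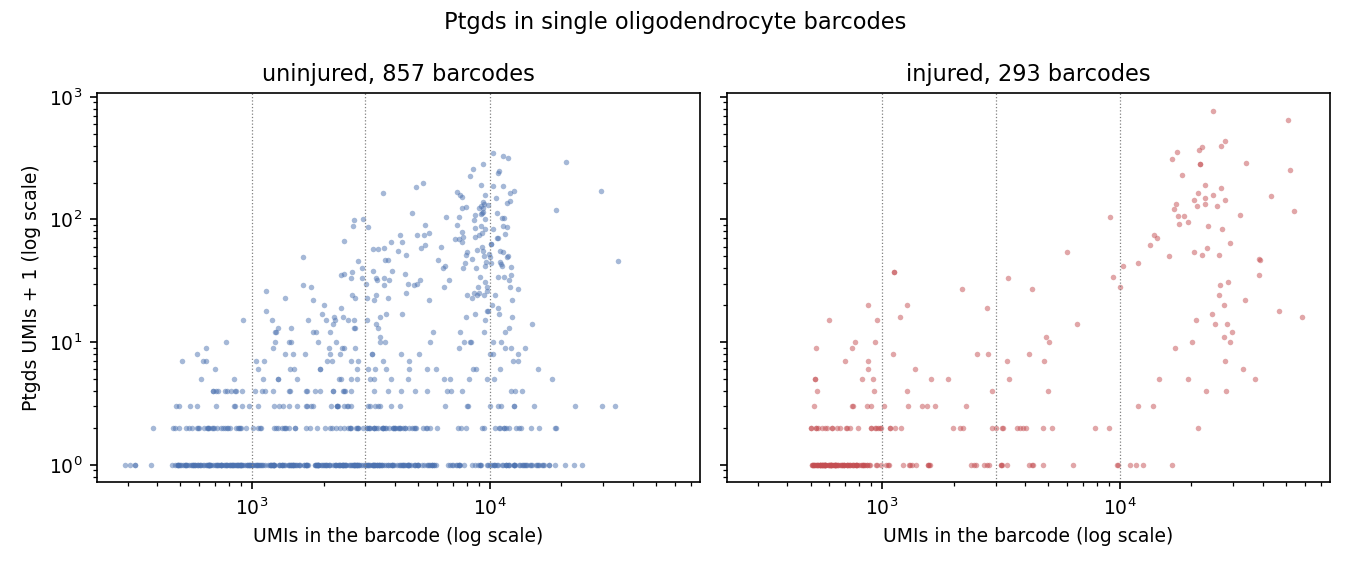
Ptgds UMIs plus 1 (y axis, log scale) against all UMIs of the barcode (x axis, log scale) for each oligodendrocyte barcode, uninjured on the left and injured on the right. Dotted lines mark 1000, 3000 and 10000 UMIs. Deep barcodes with 0 or few Ptgds UMIs were common in the uninjured library, and most injured barcodes over 10000 UMIs had many.

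Summed over oligodendrocytes, the injured level of Ptgds was 1.14 times the uninjured one (1.11-1.17), but this ratio did not hold across depth. In barcodes under 1000 UMIs the levels were 1349 CPM uninjured and 1675 CPM injured, a ratio of 1.24 (0.984-1.57). At 1000 to under 3000 UMIs they were 2892 and 2637 CPM, a ratio of 0.912 (0.785-1.05). At 3000 to under 10000 UMIs they were 4823 and 1788 CPM, a ratio of 0.371 (0.330-0.415). At 10000 UMIs and over they were 2783 and 4475 CPM, a ratio of 1.61 (1.55-1.67). The injured library was thus lower at middle depth and higher at high depth. Barcodes of 10000 UMIs or more held 1954074 of the 2302349 injured and 1820244 of the 4149375 uninjured oligodendrocyte UMIs, so the libraries also differed in their make-up by depth.

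The limit of 10000 UMIs falls inside the dense group of deep uninjured barcodes, so other limits were added after seeing the data. Over all oligodendrocyte barcodes of 3000 UMIs or more (436 uninjured, 114 injured) the ratio was 1.13 (1.10-1.16), and at 8000 UMIs or more (203 and 84) it was 1.21 (1.17-1.24). Under 8000 UMIs it was 0.514. The mean of CPM over single barcodes, which counts shallow and deep ones alike, gave a ratio of 0.862, on the other side of 1. Barcodes with under 0.5% of UMIs from Malat1, a nuclear RNA, gave a Ptgds ratio of 0.672 (0.573-0.789), and the others 1.16 (1.13-1.19). The part of depth and of Malat1 in these ratios was not tested.

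**Figure D3:**
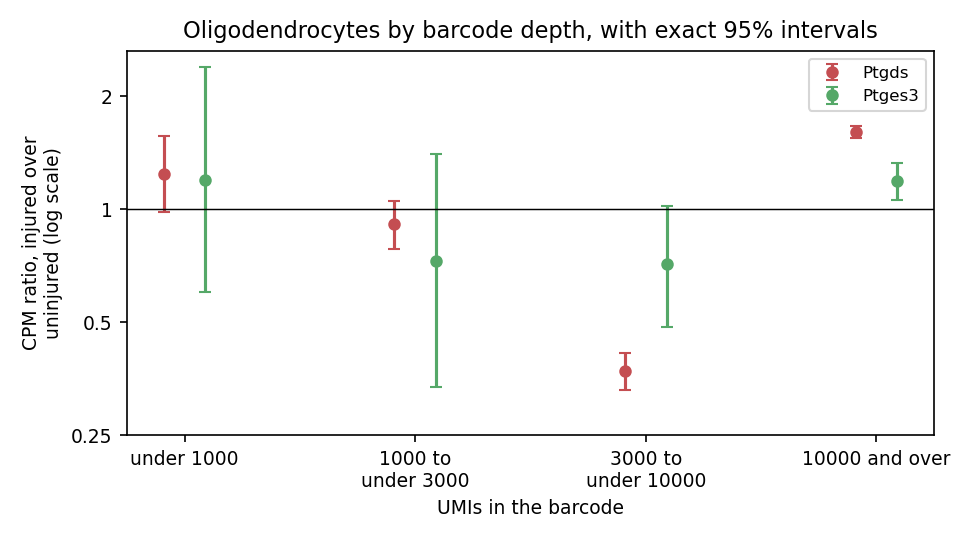
Ratio of CPM in injured over uninjured oligodendrocytes (y axis, log scale) in 4 ranges of barcode depth (x axis) for Ptgds and Ptges3, with exact 95% intervals. Ptgds fell to 0.371 at 3000 to under 10000 UMIs and reached 1.61 at 10000 and over, and Ptges3 went from 0.715 to 1.19 between the same ranges.

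Thinning to 3000 UMIs put deep barcodes on 1 scale. Of the barcodes that had 10000 UMIs or more, 71 of 135 uninjured (52.6%, 43.8-61.2%) and 65 of 79 injured (82.3%, 72.1-89.96%) then kept a Ptgds UMI, with medians of 1 and 9. Of those at 3000 to under 10000 UMIs, 66.1% of 301 uninjured and 65.7% of 35 injured barcodes kept one, but 35.5% against 14.3% kept 10 or more. Of the deep ones, 27.4% uninjured and 49.4% injured kept 10 or more. By these values the deep barcodes differed between libraries in how many had Ptgds and in how much they had. Those of middle depth differed in how much they had, though only 5 injured barcodes there kept 10 or more. The differences were not tested. Markers of meningeal fibroblasts and pericytes, which can carry Ptgds, were low in both oligodendrocyte classes, with 9 of 10 listed genes and 20.7 CPM in sum in the uninjured and 7 of 10 and 30.8 CPM in the injured class. The meningeal gene Igf2 was at 0 in all classes. Macrophage and microglia markers went from 49.2 CPM in uninjured to 329 CPM in injured oligodendrocytes, with 12 of 12 listed genes found in both, and their part in the Ptgds ratio was not tested.

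Oligodendrocytes fall into late subtypes that differ in genes such as Klk6, a secreted protease, and Il33, an alarmin of the nucleus, and a list of 18 such genes was followed beside Ptgds. Over oligodendrocyte barcodes of 3000 UMIs or more, Ptgds varied with some of them and against others. These correlations of log-normalized values are a description, added after seeing the data, over 436 uninjured and 114 injured barcodes of 1 library each. The barcodes share free RNA and differ in depth. Pearson's r of Ptgds with log depth was 0.01 in the uninjured and 0.36 in the injured library, and the median r over all genes compared was 0.0037 and 0.06.

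In the uninjured library Ptgds went with Il33 (r = 0.66), Opalin (0.64), which encodes a myelin membrane glycoprotein, Jph4 (0.50), Mal (0.48), which encodes a myelin proteolipid, and Car2 (0.42), the gene of carbonic anhydrase II. The injured values were 0.53, 0.56, 0.38, 0.45 and 0.31. It went against Anln (-0.59), a gene of the septin scaffold of myelin, S100b (-0.55), Hopx (-0.54), Klk6 (-0.52) and Hapln2 (-0.47), which encodes a link protein of nodes of Ranvier. The injured values of these were -0.25, -0.32, -0.45, -0.02 and -0.37. Of the 18 list genes, r was above 0 for 6 in the uninjured and 8 in the injured library. Outside the list, the tetraspanin genes Cd9 (0.63 and 0.62) and Cd63 (0.56 and 0.46) were among the highest. Ptgds was thus high in the barcodes with Il33 and Opalin and low in those with Hopx and S100b in both libraries, while its opposition to Klk6 was seen in the uninjured library, and the difference between libraries was not tested.

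**Figure D4:**
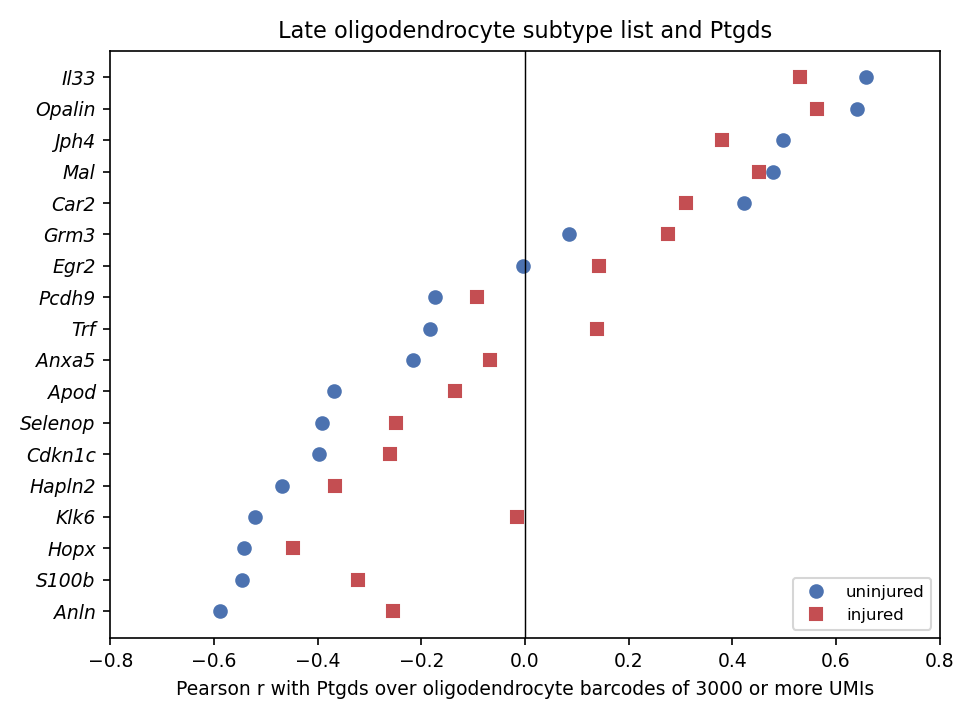
Pearson's r with Ptgds (x axis) for the 18 genes of the late oligodendrocyte subtype list (y axis) over oligodendrocyte barcodes of 3000 UMIs or more, with circles for the uninjured (436 barcodes) and squares for the injured library (114 barcodes). Il33 and Opalin had the highest values in both, and Klk6 moved from -0.52 to -0.02.

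Summed over oligodendrocytes, 4 of the 17 list genes with at least 50 UMIs were past 2-fold higher in the injured library, with an interval that left out 1. They were Il33 (6.41 times, 5.94-6.92), Klk6 (4.57 times, 4.38-4.77), Anxa5 (3.03 times, 2.59-3.55), which encodes an annexin, and Apod (2.67 times, 2.61-2.74), the apolipoprotein D gene. None was lower, and the median ratio was 1.02, beside 1.03 over all 8589 genes. Egr2, with 37 and 12 UMIs, was 5.56 times (2.83-11.7). The share of all genes called this way was 5.98% higher and 4.06% lower. None of the members with at least 50 UMIs in oligodendrocytes, Ptgds and Ptges3, was past 2-fold in either direction. Ptgds thus changed little in sum although Il33, its closest companion over uninjured barcodes, was several times higher. Scaling by TMM factors (1.07 for oligodendrocytes and 0.882 for NFOs) turned the oligodendrocyte split from 514 higher and 349 lower to 415 higher and 478 lower, and the NFO split from 205 and 68 to 278 and 46.

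Over 12 classes (type by library by depth below or from the class median), genes among the 5 most like Ptgds, of 5319 genes of at least 200 UMIs, were Trf (r = 0.95), which encodes transferrin, Spg20 (0.95), Rffl (0.94) and Csrp1 (0.93). The measure was Pearson's r of log2(CPM + 10), and the classes share 2 libraries and 3 types, so genes that rise in oligodendrocytes score high.

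In NFOs the injured level of Ptgds was 3.27 times the uninjured one (2.02-5.62), from 220 and 18 UMIs. A single injured barcode of 29396 UMIs held 115 of the 220, and without the barcode with most Ptgds in each class the ratio was 2.03. The mean of CPM over barcodes gave 0.992, and thinning to 500 UMIs gave 0.945, so the higher sum came from few barcodes. Those of 10000 UMIs or more held 149 of the 220 UMIs. Under 1000 UMIs the ratio was 0.325 (0.106-0.995, 8 UMIs in each class). At 1000 to under 3000 UMIs it was 2.26 (0.975-6.07, from 7 and 31 UMIs). At 3000 to under 10000 UMIs it was 4.49 (1.40-22.9, from 3 and 32 UMIs). In these last 2 ranges single injured barcodes held 16 of the 31 and 24 of the 32 UMIs.

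The 8 injured NFO barcodes of 10000 UMIs or more differed sharply among themselves. The 2 with most Opalin had most Ptgds. The barcode with 115 Ptgds UMIs had 55 of Opalin and 9 of Gpr17, a receptor gene that marks the onset of differentiation. The next, with 33 Ptgds UMIs, had 47 of Opalin and 2 of Gpr17. Another, with 1 Ptgds UMI, had 16 of Opalin and 27 of Gpr17. The other 5 had 0 of Ptgds, 0 of Opalin and 13-46 of Gpr17. The 2 uninjured NFO barcodes of this depth held 0 Ptgds UMIs of 23906, which allows a level of up to 154 CPM. These barcodes were looked at after their Ptgds and Hpgd values were known.

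Ptges3 was the evenly expressed member. Its level was 198 CPM (137-277) in OPCs, 202 CPM (122-315) in NFOs and 260 CPM (245-276) in oligodendrocytes of the uninjured library. In the injured library it was 247 CPM (165-354), 256 CPM (206-314) and 318 CPM (295-341). The order was the same in both libraries. Oligodendrocytes parted between libraries beyond counting error, with a ratio of 1.22 (1.11-1.34). The NFO ratio, 1.27 (0.766-2.20), did not. No pair of types within a library parted beyond counting error, the closest being injured oligodendrocytes over NFOs at 1.24 (0.996-1.56). The oligodendrocyte ratio also moved with depth, from 0.715 (0.486-1.02) at 3000 to under 10000 UMIs to 1.19 (1.06-1.33) at 10000 and over, and it was 0.744 in barcodes under 8000 UMIs. Among the 5 genes most like Ptges3 over the 12 classes were Grb2 (0.94), Chmp2a (0.90), Snx6 (0.89) and Vta1 (0.89).

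Since p23 works with Hsp90, 16 genes of Hsp90 and its partners were followed beside it. Of the 14 with at least 50 UMIs in oligodendrocytes, 0 were past 2-fold between libraries, where 5.98% of all genes were higher and 4.06% lower. With so few genes this count is near the background. Their median ratio was 1.08 beside 1.03 over all genes. Hsp90b1, the endoplasmic reticulum form, had a ratio of 1.74 (1.62-1.87), Cdc37, a kinase co-chaperone, 1.58 (1.38-1.81), and Fkbp4, an immunophilin, 0.592 (0.485-0.719). Hsp90aa1 and Hsp90ab1, the cytosolic forms, had 0.807 (0.773-0.843) and 0.893 (0.860-0.928). Aarsd1, a further co-chaperone with 9 and 38 UMIs, was at 0.427 (0.181-0.898). Ptges3 thus lay inside the range of this list. In NFOs 0 of 8 were past 2-fold, where 12.1% of all genes were higher and 4.01% lower, which is also near the background. The median there was 1.297 beside 1.15 over all genes. Between types, Hsp90aa1 was higher in oligodendrocytes than in NFOs, by 2.73 times in the uninjured and 2.45 times in the injured library, and Fkbp4 was lower in the injured one (0.443).

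Hpgd was found almost wholly in NFOs of the injured nerve, which held 126 of its 131 UMIs. The level there was 358 CPM (298-426), from 16 of 100 barcodes. Uninjured NFOs held 1 UMI (10.6 CPM, 0.269-59.2), uninjured OPCs 1, injured OPCs 1 and injured oligodendrocytes 2 (0.869 CPM, 0.105-3.14). In uninjured oligodendrocytes it was found in 0 of 857 barcodes, which allows a level of up to 0.889 CPM. The injured over uninjured ratio in NFOs was 33.7 (5.94-1342), with an upper end that is wide because it rests on 1 uninjured UMI. For oligodendrocytes no ratio between libraries was made, with 2 and 0 UMIs. Within the injured library the oligodendrocyte level was 0.0024 of the NFO level (0.00029-0.0089).

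The types also parted in the share of barcodes with Hpgd, although 79 of 293 injured oligodendrocyte barcodes and 8 of 100 injured NFO barcodes had 10000 UMIs or more. A Hpgd UMI was found in 0.683% of injured oligodendrocyte barcodes (median depth 1268 UMIs, interval 0.0828-2.44%) and in 16.0% of injured NFO barcodes (median depth 1258.5 UMIs, interval 9.43-24.7%). With barcodes thinned to 500 UMIs, 7 of 100 injured NFO barcodes kept a Hpgd UMI, and 0 of 42 uninjured ones did.

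The Hpgd counts came from few barcodes. The 8 injured NFO barcodes of 10000 UMIs or more held 27, 22, 21, 17, 4, 0, 0 and 0 Hpgd UMIs, or 91 of the 126. All 8 had Fyn UMIs (22-70 each) and Gpr17 UMIs (2-46 each). The 4 highest had 591-1121 CPM of Hpgd, the barcode with 4 UMIs had 168 CPM, and 3 had none. The 3 with most Gpr17 among those 4 (27, 46 and 30 UMIs) had 1, 0 and 0 UMIs of Ptgds, and the fourth, with 2 Gpr17 UMIs, had 33. All 8 deep barcodes, with or without Hpgd, had Bmp4 and Neu4, genes of committed precursors and early NFOs, at 1-41 and 1-18 UMIs. The 2 uninjured NFO barcodes of this depth held 0 Hpgd UMIs of 23906.

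**Figure D5:**
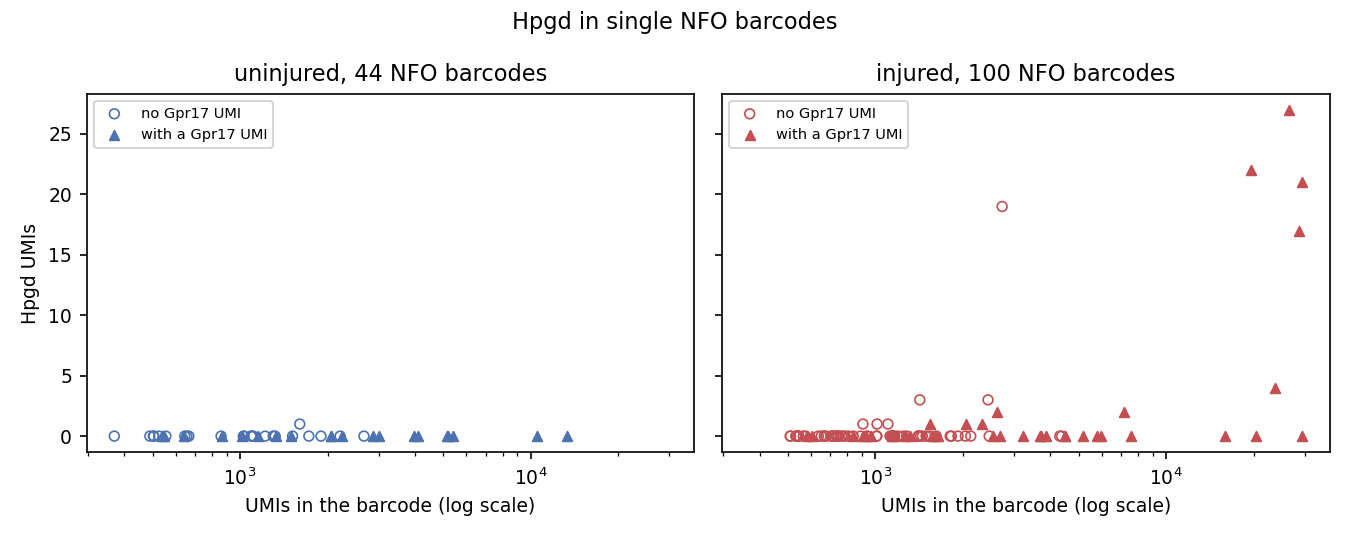
Hpgd UMIs (y axis) against all UMIs of the barcode (x axis, log scale) for each NFO barcode, uninjured on the left (44) and injured on the right (100), with filled triangles for barcodes with a Gpr17 UMI and open circles for those without. Counts of 17-27 were seen in 4 deep injured barcodes with Gpr17 and a count of 19 in a shallow barcode without it, while the uninjured library had a single Hpgd UMI.

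A count of 19 stood apart. It came from a barcode of 2729 UMIs with 0 Fyn UMIs, 388 of Mt1 and 78 of Mt3, which encode metallothioneins, and 5 UMIs of the 6 astrocyte markers, so its label NFO is not borne out by its own counts. A barcode with 3 Hpgd UMIs (2440 UMIs) also had no Fyn, and the deep barcode with 4 held 78 UMIs of astrocyte markers. Without the barcode of 19, the level was 306 CPM (251-370). The 28 injured NFO barcodes with no Fyn UMI, that barcode among them, had 835 CPM of Hpgd (529-1253) from 23 UMIs. In barcodes with a Fyn UMI the level was 318 CPM (259-385) in the injured library, from 103 UMIs in 72 barcodes. In the uninjured one it was 14.9 CPM (0.378-83.3), from 1 UMI in 21 barcodes. The summed level thus differed among barcodes that carry the NFO marker. Hpgd was found in 13 of the 72 injured and 1 of the 21 uninjured ones. In the injured library, 4 deep barcodes gave 27, 22, 21 and 17 of the 103 UMIs. The intervals cover counting error only, so they do not show how far barcodes vary. Macrophage and microglia markers were higher in injured NFOs, with 12 of 12 listed genes and 719 CPM in sum against 3 of 12 and 95.6 CPM in uninjured NFOs, where C1qa, C1qb, C1qc, Tyrobp, Lyz2, Csf1r, Aif1, Ptprc and Fcer1g were at 0. The 4 deep barcodes with most Hpgd held 2-3 UMIs of that list each.

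Hpgd and Ptgds, the genes of breakdown and synthesis, were found together in some barcodes. Of the 16 injured NFO barcodes with Hpgd, 6 had a Ptgds UMI and 10 had none, beside 22 with Ptgds among all 100. The single OPC barcode with Hpgd in each library also had Ptgds, the single uninjured NFO barcode with Hpgd had none, and neither did the 2 injured oligodendrocyte barcodes with Hpgd. These counts move with barcode depth and are a description.

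Among NFOs, 2 of the 3 members with at least 50 UMIs in both classes together (Ptgds and Hpgd) were past 2-fold higher in the injured library and 0 lower, where 12.1% of the 1695 genes tested were higher and 4.01% lower. Between oligodendrocytes and NFOs of the uninjured library, 1 of 2 such members was past 2-fold higher (Ptgds) and 0 lower, where 8.68% of genes were higher and 10.9% lower. In the injured library 1 of 3 was higher (Ptgds) and 1 lower (Hpgd), where 16.9% of genes were higher and 13.4% lower. The members were chosen by these values, so the counts are set beside the shares and nothing is read from them.

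The wider prostaglandin pathway, a list of 39 genes from release to breakdown, was detected in part. There were 10 genes with 0 UMIs in both libraries, 12 with 1-19 and 17 with 20 or more. The receptors were the emptiest group, with 8 of 11 at 0, among them Ptgdr and Ptgdr2, the receptors of prostaglandin D2, and Ptger2, Ptger3, Ptgfr, Ptgir, Tbxa2r and Pparg. Ptger1 and Ptger4, receptors of prostaglandin E2, had 6 UMIs each, and Ptgfrn, which encodes a regulator of the prostaglandin F2 alpha receptor, had 17. Of the synthases, Hpgds, the haematopoietic prostaglandin D synthase, had 13 UMIs, Tbxas1, thromboxane synthase, 10, Ptges, the membrane-bound inducible prostaglandin E synthase, 3, and Ptgis, prostacyclin synthase, 3. Slco2a1, the prostaglandin uptake carrier, had 5, Pla2g4c 3 and Ptgr1 1, while Pla2g4b and Pla2g5 had 0. In these barcodes, then, Ptgds reads were not matched by reads of cyclooxygenases or of receptors of prostaglandin D2, although genes of few RNA copies can be missed at these depths.

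Of the 13 pathway genes with at least 50 UMIs in oligodendrocytes, 1 was past 2-fold higher in the injured library and 0 lower. It was Fam213b, which encodes prostamide and prostaglandin F synthase, at 4.24 times (3.26-5.56; 193 injured and 82 uninjured UMIs). The share over all genes was 5.98% higher and 4.06% lower, so this count is near the background. The median of the 13 was 0.901, beside 1.03 over all genes. Among the 13 but not past 2-fold, Pla2g16, a phospholipase, had a ratio of 0.624 (0.572-0.680), Pla2g4a, cytosolic phospholipase A2, 0.759 (0.610-0.938), and Ptgr2, a reductase that acts after Hpgd, 1.73 (1.39-2.15). In NFOs 3 of 5 were past 2-fold higher, Hpgd, Ptgds and Fam213b (2.47 times, 1.19-5.94), with a median of 2.47 beside 1.15 over all genes, of which 12.1% were higher and 4.01% lower. Ptgds and Hpgd were chosen by these values, so nothing is read from that count or median. With the limit at 200 UMIs instead of 50, 1 was.

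Release and synthesis genes also differed between types. In the uninjured library Pla2g16 (9.26 times) and Pla2g4a (297 UMIs against 0) were higher in oligodendrocytes than in NFOs, and Mgll (0.104), the monoglyceride lipase that also frees arachidonic acid, and Fam213b (0.233) were lower. The 297 UMIs of Pla2g4a are 71.6 CPM, and 3 UMIs in the far smaller NFO class would be 31.9 CPM, so the size of that difference is not known. In the injured library Pla2g16 (36.0 times), Ptgr2 (6.34 times) and Pla2g4a (4.78 times) were higher, and Mgll (0.0722), Zadh2 (0.229) and Cbr1 (0.448), the last 2 encoding prostaglandin reductases, and Fam213b (0.399) were lower. With Ptgds and Hpgd, the counts past 2-fold were 3 higher and 2 lower of 13 in the uninjured library and 4 higher and 5 lower of 13 in the injured library, with medians of 0.843 and 0.685 beside 1.001 and 1.002 over all genes. The shares over all genes were 8.68% higher and 10.9% lower in the uninjured library and 16.9% and 13.4% in the injured one. The phospholipase genes Pla2g6 and Pla2g12a were not past 2-fold in either library. Oligodendrocytes thus held more of the RNAs of Ptgds, Pla2g16 and Pla2g4a, and NFOs more of Mgll and Fam213b in both libraries and of Hpgd in the injured one. Of the late subtype list, 14 of 17 genes were past 2-fold higher in oligodendrocytes in each library, beside 8.68% and 16.9% of all genes, and Cdkn1c was lower in the injured one (0.423). In injured over uninjured NFOs, Opalin was higher (4.46 times, 2.29-9.94) and Pcdh9, a protocadherin gene (0.482, 0.271-0.878), and Mal (0.294, 0.153-0.568) were lower. Of the 150 injured Opalin UMIs, 55, 47 and 16 came from single deep barcodes, and uninjured NFOs held 9, so the higher sum of Opalin rests on few barcodes.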

How the data were processed

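From optic nerve, 2 libraries of single cells (10X Genomics v2 kit) were made, 1 uninjured and 1 injured. The submitters' processing notes name bcl2fastq 2.17.1.14, Cell Ranger 1.3, Seurat 4.0.3 and the mm10 build. The authors deposited the natural log of 1 plus 10000 times a gene's UMIs over the barcode's UMIs, with a type for each barcode. Whole UMIs were recovered by undoing the log and dividing a barcode's values by its smallest one above 0 (within 0.001 in 100% of barcodes), and the step was tested on simulated data. CPM are summed UMIs per 1000000 UMIs of a class, with exact Poisson intervals. Ratios have exact conditional intervals, and shares exact Clopper-Pearson intervals. Ratios over all genes used at least 50 summed UMIs, and called means at least 2-fold with an interval that leaves out 1. Such ratios needed 20 barcodes per class, and injured OPCs had 17. No p-values were computed, since barcodes of 1 library are not replicates.

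The members and gene lists were chosen with earlier results of these data known. Named list genes have at least 20 UMIs in the classes compared and are past 2-fold (up to 6 per list and comparison). Pathway genes under 20 UMIs are given by count, and other list genes were named after their values were seen. The 5 genes most like a member were named for members of at least 200 UMIs. A few results are not reported here. Sequences came from RefSeq. Python 3.11.15, numpy 2.4.6, scipy 1.17.1, pandas 2.3.3 and scanpy 1.11.5 (Scrublet) were used. The alternatives were a stricter filter (at least 500 genes, at most 10% mitochondrial UMIs), mean CPM or mean log values over barcodes, thinning to 500 UMIs, TMM scaling, leaving out called doublets (13 uninjured, 4 injured), Malat1-poor barcodes or the leading barcode, and a limit of 8000 UMIs.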

Additional observations from a re-analysis of the deposited data

Results flagged for a closer look

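Ptgds in oligodendrocytes moved in opposite directions between the libraries at different barcode depths. The injured over uninjured ratio was 0.371 at 3000 to under 10000 UMIs and 1.61 at 10000 UMIs and over, each with an interval that leaves out 1. It also lay on opposite sides of 1 in barcodes with under 0.5% of UMIs from Malat1 (0.672) and in the others (1.16). In NFOs the Ptgds ratio was 0.325 under 1000 UMIs and 4.49 at 3000 to under 10000 UMIs. The differences between these ranges were not tested, since each condition has 1 library.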

How the results depend on the processing

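No paired analysis was possible because each condition has 1 library and the labels carry no replicate numbers. Of 61 alternative values of the ratios, 36 lay within the interval of the value reported, 16 lay outside it on the same side of 1, and 9 turned the direction of a ratio whose interval leaves out 1. The Ptgds ratio in oligodendrocytes (1.14) turned to 0.514 in barcodes under 8000 UMIs, 0.862 with mean CPM over barcodes, 0.853 with thinning to 500 UMIs and 0.942 with mean log values. It moved to 1.23 with the stricter filter, 1.06 with TMM scaling, 1.08 without the leading barcodes and 1.21 at 8000 UMIs and over. The Ptgds ratio in NFOs (3.27) turned to 0.992 with mean CPM, 0.945 with thinning and 0.801 with mean log values, and moved to 7.06 without Malat1-poor barcodes and to 1.75 under 8000 UMIs. The Ptges3 ratio in oligodendrocytes (1.22) turned to 0.744 under 8000 UMIs and 0.963 with mean log values, and moved to 1.06 with mean CPM. Ptgds in uninjured oligodendrocytes over NFOs (18.8) moved to 32.7 without Malat1-poor barcodes, 6.92 with mean CPM, 8.18 with thinning and 3.001 with mean log values. Hpgd in injured oligodendrocytes over NFOs (0.0024) moved to 0.0300 under 8000 UMIs, 0.0451 with mean CPM, 0.0284 with thinning and 0.710 with mean log values, and Hpgd in injured over uninjured NFOs (33.7) to 1.37 with mean log values. Mean log values draw ratios of rare genes towards 1 by construction. With a limit of 200 summed UMIs, the genes past 2-fold were 379 and not 863 in oligodendrocytes, 55 and not 273 in NFOs, and 1 and not 3 of the pathway list in NFOs, where fewer genes were tested (4806 and 329). Other causes were not tested.

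There was no value where a class was left with 0 UMIs of the gene, which was so for Hpgd in oligodendrocytes between libraries, for Ptges3 in NFOs when thinned, and for Hpgd when thinned, without its leading barcode in uninjured NFOs or without Malat1-poor barcodes. Only 94130 UMIs of uninjured NFOs limit Hpgd and Ptgds there, and with single libraries the nerve, its dissection and the injury cannot be told apart.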
